A study of Mus musculus with 69 samples.

Results

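Liver RNA of mice 1 day after the lowest acetaminophen dose of the series, 168.75 mg/kg, was set against liver RNA of vehicle mice of the same day. Acetaminophen (APAP) is a painkiller whose overdose injures the liver. The comparison takes the 5 arrays labelled as low APAP at 1 day and the 5 labelled as APAP vehicle at 1 day, chosen by their titles, so 10 of the 69 arrays of the series. All mice of both groups were male C57BL/6, 10 weeks old, and took 1 treatment by oral gavage; they differed in the treatment alone, as far as the labels say. RNA came from the middle of the left lateral lobe, was labelled with biotin and hybridised to Affymetrix arrays, 1 array per mouse. Replicate numbers from 1 to 5 follow the order of the deposited records and are names only. Medium (225 mg/kg) and high (300 mg/kg) APAP groups at 1 day, with 5 arrays each, serve below to place single arrays.

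In the liver, most APAP is joined to glucuronic acid or sulfate and excreted, while cytochromes P450, above all Cyp2e1, turn a part into a reactive quinone imine (NAPQI). Glutathione captures the quinone imine, and when glutathione runs short it binds protein, chiefly in the pericentral hepatocytes that hold most of these P450s. Oxidants and electrophiles release the transcription factor NRF2, which raises genes for glutathione synthesis, glutathione S-transferases and quinone reduction. Dying hepatocytes draw in neutrophils and monocytes, and surviving ones secrete acute phase proteins.

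Values are log2 signals, so a difference of 1 is a doubling, and a gene was called when its adjusted p (limma, Benjamini-Hochberg over 17306 probe sets) was under 0.05. Depth has no meaning for arrays; the number of arrays limits precision. The signals show liver: the 13 measured hepatocyte markers, such as albumin and apolipoproteins, averaged between 13.05 and 13.11 in the 5 low arrays and between 13.04 and 13.10 in the vehicle arrays, near the top of the scale at 14.34. Array medians lay between 4.39 and 4.55.

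One low array stood apart, and results are given with and without it. Replicate 1 had 1188 probe sets over 1 log2 unit from the vehicle mean, against 20, 30, 53 and 47 in low replicates 2 to 5. Vehicle arrays, each set against the mean of the other 4, had 9, 26, 59, 18 and 12 such probe sets. Low replicates 2 to 5 thus lay in the vehicle range by this count. In the medium group the counts ran from 30 to 1182, the highest being replicate 4, and in the high group they were 33, 1361, 1279, 159 and 1463. The spread (SD) of gene-wise differences between replicate 1 and other arrays was 0.548 to 0.580 for the other low arrays and 0.567 to 0.617 for vehicle arrays. It was 0.273 for medium replicate 4, 0.273 for high replicate 2, 0.304 for high replicate 3, 0.307 for high replicate 5, 0.442 for medium replicate 5 and 0.441 for high replicate 4. It was 0.471 and 0.509 for medium replicates 1 and 3, and only medium replicate 2 (0.591) and high replicate 1 (0.617) were as far off as vehicle. Replicate 1 was therefore nearer to 8 of the 10 medium and high arrays than to any array of its own group. It is named by its label throughout; what sets it apart, and whether its label is right, was not tested.

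**Figure D1:**
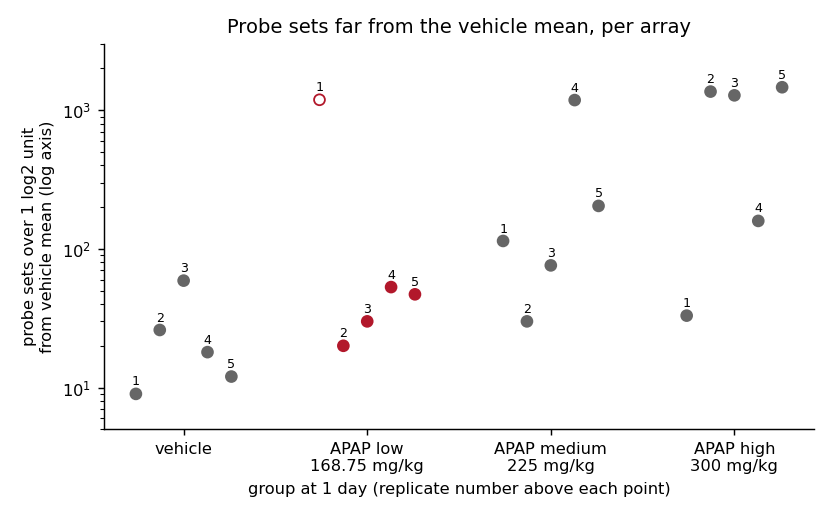
Number of probe sets over 1 log2 unit from the vehicle mean (log axis) in each array at 1 day, by group, with the replicate number above each point and low replicate 1 as an open circle. Replicate 1, at 1188, sits with medium replicate 4 and high replicates 2, 3 and 5, and low replicates 2 to 5 sit between 20 and 53, beside vehicle arrays at 9 to 59.

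With all 5 low arrays, 0 of 17306 probe sets (0%) were called, and the smallest adjusted p (limma) was 0.466. At an unadjusted p under 0.05 there were 1264 probe sets, or 7.3%, of which 623 were higher and 641 lower in low APAP. Without replicate 1, 4 low arrays against 5 vehicle arrays gave 1 called probe set (0.00578%), that of Tubb2a, and 1364 (7.88%) at an unadjusted p under 0.05. Of these, 711 (4.11%) were higher and 653 (3.77%) lower. The 4 low arrays all lay above all 5 vehicle arrays for 279 probe sets (1.61%) and all below for 234 (1.35%). With replicate 1 included, 1.13% lay above and 1.03% below. Apart from Tubb2a, the genes named below without replicate 1 did not pass the adjusted threshold, and their values are a description.

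Tubb2a encodes a beta-tubulin, a building block of microtubules. Its signal was 10.63 in low replicate 1 and 9.09, 9.27, 9.08 and 9.30 in low replicates 2 to 5, against 8.16, 8.08, 8.06, 7.78 and 8.30 in vehicle mice. Every low array was above every vehicle array, and the 4 arrays other than replicate 1 were close together. Without replicate 1, Tubb2a rose 2.16-fold, with a log2 difference of 1.11 (SE 0.10, n = 4 and 5, limma adjusted p = 0.00364). With all 5 low arrays the difference was larger, 1.40 (SE 0.26), but the adjusted p was 0.466. The SD within the low group was 0.65 with replicate 1 and 0.12 without it. The call without replicate 1 held when any 1 further array was left out, with limma adjusted p between 0.0023 and 0.0332. It was lost when the spread was taken from all other 68 arrays (limma adjusted p = 0.9998). It was lost too with the spread of vehicle, low APAP, all isoniazid and the lower paraquat groups at 1 day (adjusted p = 0.303). The log2 difference was the same in both.

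The stretch around the Tubb2a start site is shown because this gene carries the only call. It runs from 250 bases before to 50 after the start, at chr13:34077959-34078258 of GRCm38.p6 on the minus strand, as RefSeq gives it. Capitals mark TGACGTCA, the palindromic cyclic AMP response element, from 59 to 52 bases before the start, and TATAAA, from 29 to 24 bases before it.
Tubb2a: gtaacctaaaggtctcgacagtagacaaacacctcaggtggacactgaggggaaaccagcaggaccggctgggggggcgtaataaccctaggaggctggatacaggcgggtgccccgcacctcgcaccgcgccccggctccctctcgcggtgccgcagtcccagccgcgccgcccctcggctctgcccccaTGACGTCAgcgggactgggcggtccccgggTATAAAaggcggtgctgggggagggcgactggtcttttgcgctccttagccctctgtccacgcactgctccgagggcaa
Both strands were searched, and these motifs do not overlap. Of 32851 promoters of this length, 1.79% hold TGACGTCA and 13.6% hold TATAAA. TGACNNNGC, the core of the antioxidant response element that NRF2 binds, was searched too, is in 12.4% of promoters, and has no match in this stretch.

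Across the series, the highest group medians of Tubb2a were those of high and low APAP at 1 day. At that time the median was 8.08 in vehicle mice at 1 day, 9.27 after low, 8.63 after medium and 10.62 after high APAP. The medium arrays held 8.63, 8.57, 8.26, 11.07 and 9.97, and the high arrays 7.64, 10.62, 10.91, 9.19 and 11.04. Those groups overlap with vehicle through high replicate 1 and medium replicate 3, unlike the low group. Low minus medium was 0.17 (SE 0.53, n = 5 each, limma adjusted p = 0.998) and low minus high -0.41 (SE 0.63, adjusted p = 0.737), so no order of the doses can be read from it. In the 3 isoniazid and 3 paraquat groups at 1 day, medians lay between 7.45 and 8.53, with single arrays up to 9.09 after low isoniazid and 11.68 after high paraquat. At 2 days the medians were 8.28 after high APAP, 8.74 after high isoniazid (8.16 to 9.58) and 8.17 after high paraquat, against 8.11 in vehicle mice.

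**Figure D2:**
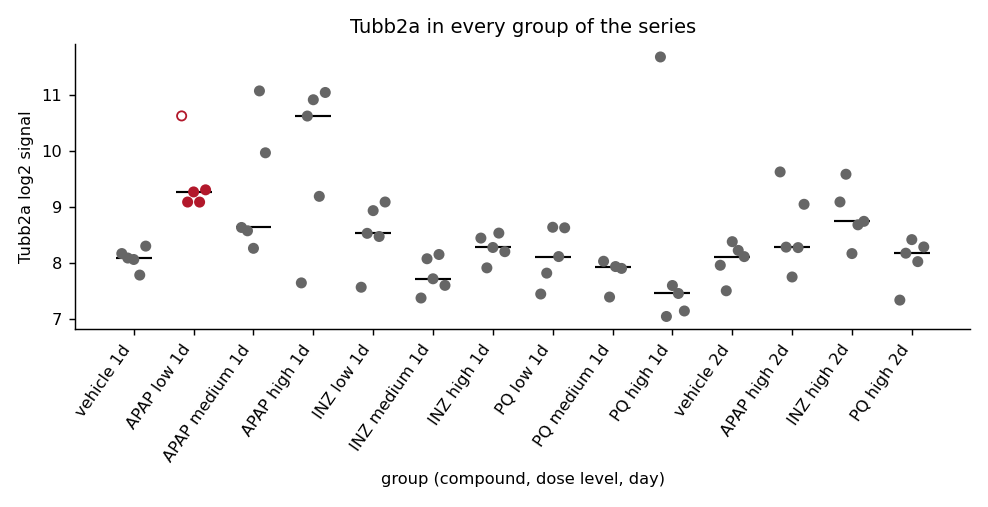
Tubb2a log2 signal in every array of the 14 groups, with the group median as a line, low APAP in red and its replicate 1 as an open circle. The 5 low APAP arrays, between 9.08 and 10.63, lie above the 5 vehicle arrays of 1 day, between 7.78 and 8.30, and the arrays of higher APAP doses are spread widely.

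No other tubulin gene was called. Tubulin genes are close in sequence, and whether the Tubb2a probe set also reads its relatives was not tested. The family is described because of the Tubb2a call, so its members were chosen after that value was seen. Of the 12 measured tubulin genes other than Tubb2a, 3 reached an unadjusted p under 0.05 without replicate 1, all higher in low APAP, against 4.11% higher and 3.77% lower over all probe sets. They were Tuba4a (an alpha-tubulin, log2 difference 0.36), Tubd1 (delta-tubulin, 0.32) and Tubg1 (gamma-tubulin of the centrosome, 0.20). Tubb5, a widely expressed beta-tubulin, lay between 8.50 and 8.76 in low replicates 2 to 5, against 8.47 to 8.62 in vehicle mice. In replicate 1 it was at 10.06, and Tubb6, another beta-tubulin, at 9.05, against 5.35 to 6.20 in vehicle mice.

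The other genes higher in the 4 arrays stood below the call. They were picked among genes whose 4 low arrays, or all 5, lay above all vehicle arrays. That separation was therefore set by the choice and is not a result. Hdhd3, a hydrolase of the haloacid dehalogenase family, had 6.89 in replicate 1 and 7.02, 6.88, 7.29 and 7.18 in low replicates 2 to 5, against 6.45, 6.62, 6.34, 6.46 and 6.53 in vehicle mice. All 5 low arrays were above all vehicle arrays (log2 difference without replicate 1 of 0.61, SE 0.09, limma adjusted p = 0.125). Slc30a10, a manganese exporter of liver and gut, had 7.46 in replicate 1 and 6.84, 6.76, 6.64 and 6.65 in the other low arrays, against 6.34, 6.30, 5.88, 6.06 and 6.14 in vehicle mice. Replicate 1, which did not enter the choice of Slc30a10, was above all vehicle arrays too (0.58 without it, SE 0.09, adjusted p = 0.240).
Nr0b2 (SHP), a nuclear receptor without a DNA-binding domain that represses bile acid synthesis, behaved otherwise. It had 9.47, 9.58, 9.67 and 9.34 in low replicates 2 to 5 but 8.56 in replicate 1, against 8.06, 8.90, 8.62, 8.48 and 8.87 in vehicle mice. The 4 arrays were above all vehicle arrays and replicate 1 was among them (0.93, SE 0.15, adjusted p = 0.240 without replicate 1; 0.74 with it).
Pctp, a phosphatidylcholine transfer protein, was higher in the 4 arrays (0.44, adjusted p = 0.245), at 7.85 to 8.11 against 7.34 to 7.62 in vehicle mice, and in replicate 1 it was below both, at 6.85. Trub2, a pseudouridine synthase of mitochondrial RNA, Ccdc51, a protein of the inner mitochondrial membrane, and AI661453 differed by 0.37, 0.32 and 0.38, with adjusted p from 0.166 to 0.245. The rule also gave Rpf2, of ribosome assembly, and Zscan22, a zinc finger gene, whose 5 low arrays were above all vehicle arrays by 0.57 and 0.58 in the mean.

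Genes lower in the 4 arrays were likewise picked among those whose 4 low arrays, or all 5, lay below all vehicle arrays. Among them, Rbm33, an RNA-binding protein, came nearest to a call. It had 5.79 in replicate 1 and 6.64, 6.57, 6.43 and 6.59 in the other low arrays, against 7.06, 7.02, 7.09, 6.98 and 6.97 in vehicle mice. The log2 difference without replicate 1 was -0.47 (SE 0.06, limma adjusted p = 0.0587). The adjusted p (limma) was 0.0262 when dim genes were left out, 0.0399 with trended and robust moderation and 0.0166 with vehicles of both days. It was 0.109 to 0.208 when 1 more array was left out, and 0.399 and 0.9998 with the spread shared by the quieter 1 day groups or by all other arrays.
Crebrf, a regulator of the CREB3 factor in stress responses, was at 6.60 to 6.87 in the 4 arrays and 5.88 in replicate 1, against 7.07 to 7.42 in vehicle mice (-0.50, adjusted p = 0.281). Gpcpd1, which splits glycerophosphocholine, was at 6.78 to 7.11 and 5.85, against 7.34 to 8.08 (-0.68, adjusted p = 0.307). For both, replicate 1 lay further from vehicle in the direction of the other low arrays. Tsc22d2, Snhg4 (a host gene of small nucleolar RNAs), Ube4b (a ubiquitin chain assembly factor) and Ankra2 were lower in all 5 low arrays than in any vehicle array, with mean log2 differences from -0.44 to -0.35. Slc35a4 (-0.34 without replicate 1) was the exception, with replicate 1 at 5.36, above all vehicle arrays at 5.11 to 5.24. Gm4871 (-0.44) was near the bottom of the scale in every array.

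**Figure D3:**
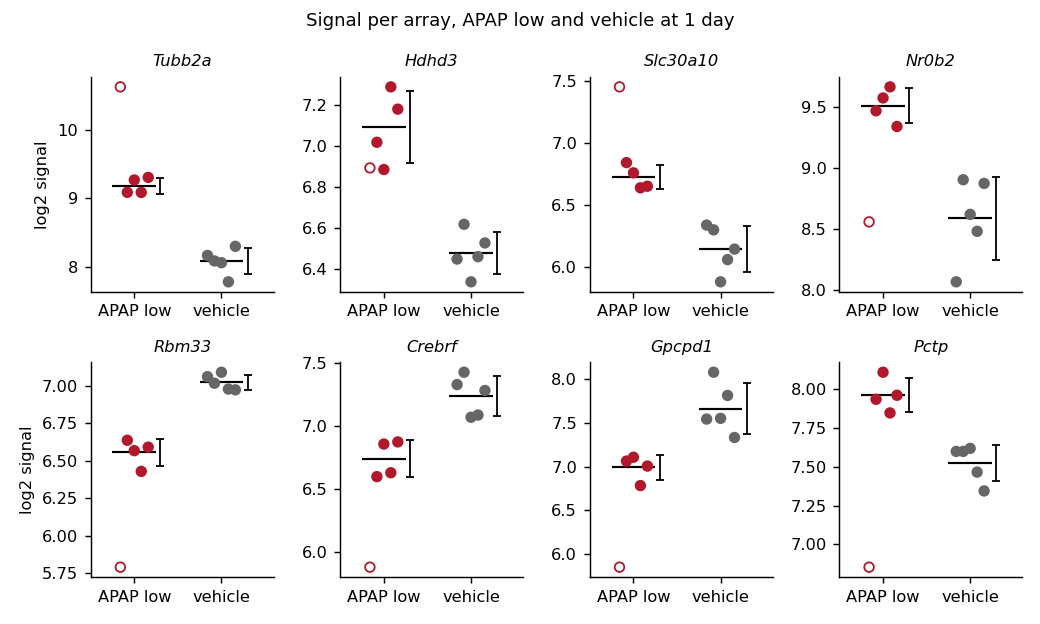
Log2 signal of 8 genes in each low APAP and each vehicle array at 1 day, with replicate 1 as an open circle; lines are means and bars SDs of the 4 low arrays without replicate 1 and of the 5 vehicle arrays. Replicate 1 is furthest from vehicle for Tubb2a, Slc30a10, Rbm33, Crebrf and Gpcpd1, and lies within or beyond the vehicle range on the other side for Nr0b2 and Pctp.

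Genes that activate and conjugate APAP did not separate low replicates 2 to 5 from vehicle. Of 17 measured members, 0 reached an unadjusted p under 0.05 in either direction without replicate 1, against 4.11% higher and 3.77% lower over all probe sets, and their median log2 difference was 0.03, against 0.00062 over all. Cyp2e1, the main P450 of quinone imine formation, had 13.35 in replicate 1 and 13.54, 13.67, 13.55 and 13.56 in the other low arrays, against 13.62, 13.50, 13.67, 13.61 and 13.64 in vehicle mice. The signals are near the top of the scale, where arrays resolve differences poorly.
In replicate 1, 16 of the 17 members lay below every vehicle array, as did 35% of all probe sets, and 4 were over 1 log2 unit below the vehicle mean, against 2.43% of all probe sets. Ugt2b1, a glucuronosyltransferase with close relatives that its probe set may also read, was at 10.80 in replicate 1 and 12.74 to 12.84 in the other low arrays, against 12.76 to 12.91 in vehicle mice. Sult1d1, a sulfotransferase, was at 7.33 and 9.51 to 10.07, against 9.69 to 10.12. Cyp1a2 and Cyp3a11, P450s that also oxidise APAP, differed by -0.76 and -0.74 in replicate 1. The exception was Cyp3a13, 0.68 above the vehicle mean.

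Glutathione supply was near vehicle in the 4 arrays, with a list median of 0.04 against 0.00062 over all probe sets. Of 11 measured members, 9 had a positive difference. At an unadjusted p under 0.05, 1 was higher and 0 lower, against 4.11% and 3.77% of all probe sets. The 1 was Ggct, a cyclotransferase of the glutathione cycle (0.21, limma adjusted p = 0.536), at 6.77 to 6.92 against 6.47 to 6.77 in vehicle mice. Gclc, the catalytic subunit of the rate-limiting ligase of glutathione synthesis, had 11.51 in replicate 1 and 11.23, 11.39, 11.36 and 11.57 in the others, against 11.14, 11.13, 11.41, 11.03 and 11.27. The groups overlapped through vehicle replicate 3 (0.19, adjusted p = 0.635). In replicate 1, Cth, which makes cysteine from cystathionine, differed from the vehicle mean by -1.29, and Slc7a11, the cystine importer, by 1.34.

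NRF2 target genes were mostly higher in the 4 arrays, without a call: 18 of 22 had a positive difference. Without replicate 1, 8 of 22 were higher and 0 lower at an unadjusted p under 0.05, and 0 were called, against 4.11% and 3.77% of all probe sets. The list median was 0.14, against 0.00062 over all probe sets. The 8 were Gstm3 (0.83), Gsta2 (0.60), Gsta4 (0.52), Gstm4 (0.37), Nqo1 (0.36), Cbr3 (0.29), Ephx1 (0.23) and Gstm1 (0.19), with adjusted p from 0.308 to 0.615. Most encode glutathione S-transferases, which couple electrophiles to glutathione; Nqo1 and Cbr3 reduce quinones and carbonyls, and Ephx1 opens epoxides.
Gsta4 had 10.63, 10.50, 10.94 and 10.38 in low replicates 2 to 5, all above the 10.17, 9.92, 10.25, 9.92 and 10.21 of vehicle mice. Gstm3 had 10.30, 9.82, 10.60 and 9.52, against 9.33, 9.12, 9.56, 9.29 and 8.84, overlapping in low replicate 5 and vehicle replicate 3. Both genes were highest in low replicate 4. Close relatives within the Gsta and Gstm families share sequence, so their probe sets may read each other's RNA, and these members are not separate measurements. The count of 8 was 4 without low replicate 4 and 9 without vehicle replicate 3, and 4 when the spread was shared by all other 68 arrays.

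Replicate 1 split the same list. The transferases that were higher in the other low arrays were lower there: Gstm3 was at 6.78 (-2.45 from the vehicle mean), Gsta4 at 9.11 (-0.99) and Gsta3, which was near vehicle in the others, at 10.55 (-1.77). Other members were far above vehicle. Hmox1 (heme oxygenase 1) had 8.12 in replicate 1 and 5.83, 5.88, 5.80 and 5.74 in the other low arrays, against 5.69, 5.91, 5.61, 5.91 and 6.01. Srxn1, sulfiredoxin, had 8.49 and 6.19 to 6.43, against 6.06 to 6.31. Abcc4, an efflux pump of the sinusoidal membrane, and Cbr3 were 2.76 and 2.33 above the vehicle mean. In all, 5 of the 22 were over 1 log2 unit above and 4 over 1 below, against 4.44% and 2.43% of all probe sets. With all 5 low arrays, 2 members were higher and 0 lower at an unadjusted p under 0.05.

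The promoter stretch of Gstm3 is shown beside these values because this gene was the one furthest above vehicle in the 4 arrays and furthest below it in replicate 1 among the transferases. It lies at chr3:107969125-107969424 of GRCm38.p6, on the minus strand, and spans the same 250 and 50 bases by RefSeq. None of TGACGTCA, TATAAA and TGACNNNGC matched on either strand, so it holds no capitals, and nothing about NRF2 follows from that.
Gstm3: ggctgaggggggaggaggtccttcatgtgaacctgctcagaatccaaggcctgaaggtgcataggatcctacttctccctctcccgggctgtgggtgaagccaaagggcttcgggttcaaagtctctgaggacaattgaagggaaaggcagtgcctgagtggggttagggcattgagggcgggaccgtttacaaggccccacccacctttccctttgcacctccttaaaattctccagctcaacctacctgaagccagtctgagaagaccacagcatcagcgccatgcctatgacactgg

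**Figure D4:**
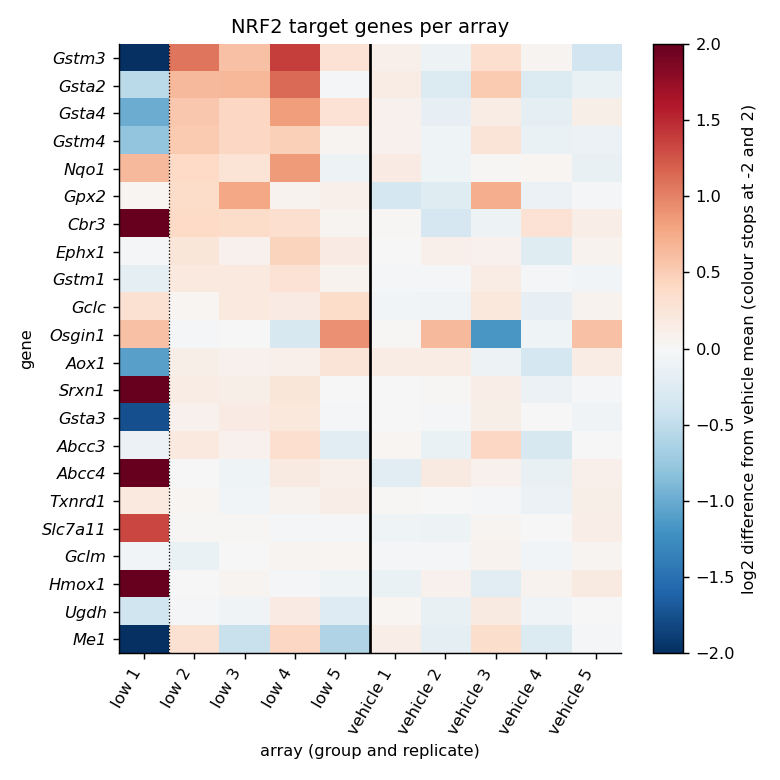
Log2 difference from the vehicle mean for the 22 measured NRF2 target genes (rows, ordered by their difference without replicate 1) in each low and vehicle array (columns), with colours ending at 2 units. The uppermost rows are red in low replicates 2 to 4 and mostly blue in replicate 1, where Cbr3, Srxn1, Abcc4, Slc7a11 and Hmox1 are red.

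Cholesterol synthesis genes had a positive list median in each of the 5 low arrays, between 0.05 and 0.28 in replicates 2 to 5, against -0.23 to 0.15 in single vehicle arrays. Without replicate 1, 0 of 14 measured members were called, while 6 were higher and 1 lower at an unadjusted p under 0.05, against 4.11% and 3.77% of all probe sets, and 13 of 14 had a positive difference, with a median of 0.22 against 0.00062 over all probe sets. Lss, which closes the sterol ring, had 9.55 in replicate 1 and 8.55, 8.63, 8.49 and 8.47 in the others, against 8.48, 8.27, 8.26, 8.22 and 8.04 in vehicle mice (0.28, limma adjusted p = 0.418). Cyp51, the lanosterol demethylase, had 9.97 and then 8.92, 9.12, 8.73 and 9.16, against 8.75, 8.76, 8.74, 8.72 and 8.65 (0.26, adjusted p = 0.501). Both overlapped slightly with vehicle in the 4 arrays and stood well above it in replicate 1. In replicate 1 the list median was 0.83. There 5 members were over 1 unit above the vehicle mean and 1 below, against 4.44% and 2.43% of all probe sets. The count of 6 was 3 without vehicle replicate 5 and 0 with the spread of all other 68 arrays.

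Targets of PPAR alpha, the fatty acid receptor that raises fat oxidation, gave counts that changed with single arrays. Without low replicate 1, 0 of 25 members were called, 7 were higher and 1 lower at an unadjusted p under 0.05, against 4.11% and 3.77% of all probe sets, and the median was 0.11. Cyp4a10, a fatty acid omega-hydroxylase, had 10.34 in replicate 1 and 11.05, 11.15, 11.12 and 11.22 in the others, against 9.81, 9.39, 11.35, 10.04 and 9.97 in vehicle mice. Vehicle replicate 3 alone was as high as low APAP.
Its relative Cyp4a14, named after its values were seen, showed the same array pattern, with 9.15, 10.05, 9.38, 9.61 and 9.17 in low APAP, against 7.34, 6.43, 10.23, 7.03 and 7.23. Without vehicle replicate 3 and low replicate 1, Cyp4a10 was called, with a log2 difference of 1.33 (SE 0.13, limma adjusted p = 0.00666), as were Cyp4a14 and Tubb2a. With the 2 day vehicle mice added as controls, the difference of Cyp4a10 was 0.39 (adjusted p = 0.817), and 0 members of the list were higher at an unadjusted p under 0.05. The count of 7 was 3 without low replicate 2 or without vehicle replicate 1, 2 or 4, 4 without vehicle replicate 5, 10 without vehicle replicate 3, and 2 with the spread of all other 68 arrays.
Angptl4, a secreted inhibitor of lipoprotein lipase on the same list, ran the other way, at 8.74 in replicate 1 and 8.68, 8.23, 8.52 and 8.99 in the others, against 9.14, 9.66, 9.94, 9.45 and 8.92 (-0.82, adjusted p = 0.353).

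Inflammation and tissue response genes were near vehicle in low replicates 2 to 5 and far above it in replicate 1. Each value of replicate 1 rests on 1 array. In bulk liver, more cells of a type and more RNA per cell cannot be told apart, nor fewer from less. Over all probe sets, replicate 1 was over 1 log2 unit above the vehicle mean for 4.44% and below for 2.43%, with a median difference of -0.04.
Among 26 acute phase genes, 15 were over 1 unit above and 0 below, with a median of 1.64. Lcn2, an iron-siderophore binder of the acute phase, was at 13.11 in replicate 1 and 6.86, 7.83, 6.59 and 6.35 in the others, against 7.89, 6.43, 5.86, 10.26 and 7.16. Vehicle replicate 4 was the high one among vehicle mice, and also for Saa2, serum amyloid A2, with 13.72 in replicate 1 and 6.95, 7.85, 6.85 and 7.70, against 9.14, 7.32, 6.44, 11.06 and 8.65. Medians of the list in the 4 other low arrays lay between -0.14 and 0.01, within the -0.26 to 0.26 of single vehicle arrays.

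Markers of recruited white cells were high in the same array. Of 17 monocyte and macrophage markers 13 were over 1 unit above the vehicle mean and 0 below (median 1.62), and of 15 neutrophil markers 8 and 0 (median 1.06). S100a8, a calprotectin subunit of neutrophils and monocytes, had 9.63 in replicate 1 and 4.36, 3.92, 3.80 and 4.37 in the others, against 4.46, 3.76, 3.66, 4.03 and 4.26. Chil3, made by alternatively activated macrophages, had 8.08 and 2.81 to 3.26, against 2.71 to 3.18. The neutrophil granule genes Mpo, Elane, Camp and Ltf differed from the vehicle mean by -0.11 to 0.03 in replicate 1, close to the bottom of the scale. Ngp, also a granule gene of that list, differed by -0.36 there, so the neutrophil list was not raised throughout.
Resident Kupffer cell markers had a median of 0.35 there, with 2 of 15 over 1 unit above, T and NK markers a median of 0.11 and B cell markers -0.03. Stellate cell and matrix genes had 12 of 21 over 1 unit above and 1 below (median 1.06). In low replicates 2 to 5, mean log2 signals of the monocyte and neutrophil lists were near vehicle level. The monocyte and macrophage markers averaged 4.82 to 4.87, against 4.77 to 5.00 in vehicle mice and 6.97 in replicate 1. The neutrophil markers averaged 4.14 to 4.34, against 4.24 to 4.49 and 5.94.

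**Figure D5:**
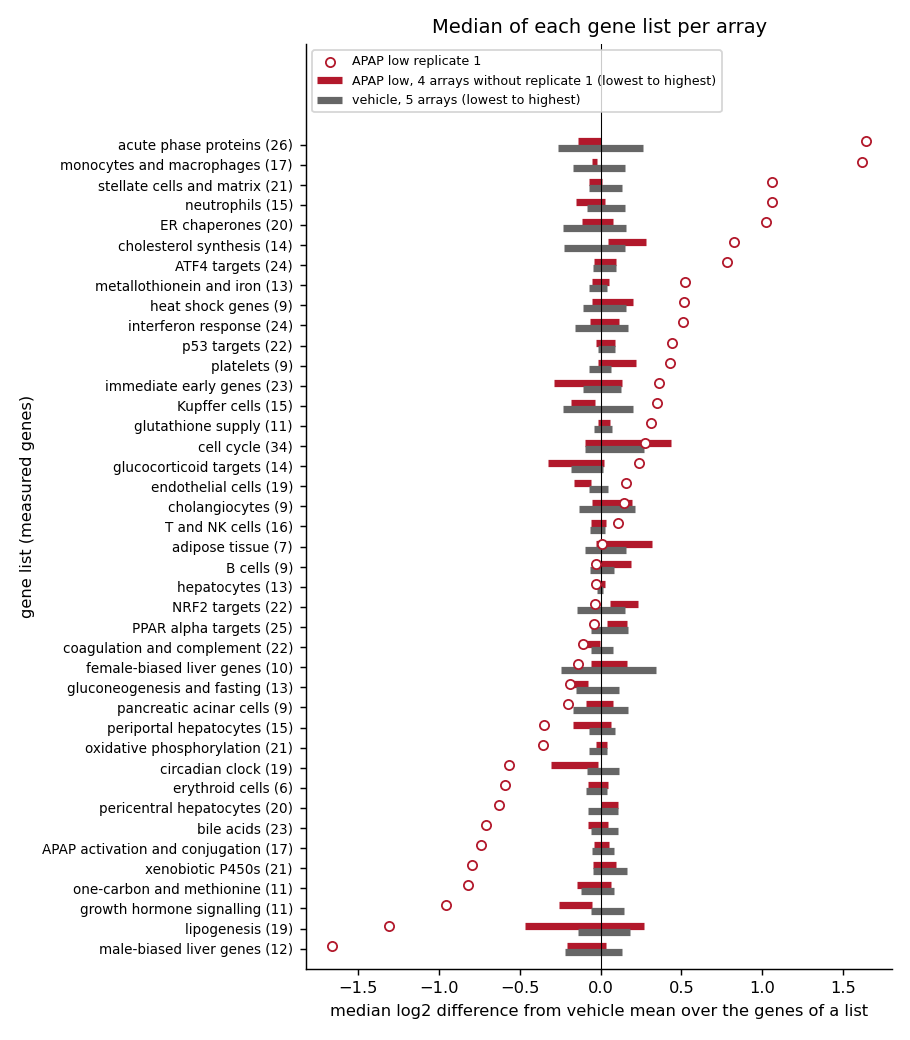
Median log2 difference from the vehicle mean over the genes of each of 41 lists, for low replicate 1 (open circles), for low replicates 2 to 5 (red bars from lowest to highest array) and for the 5 vehicle arrays (grey bars). Replicate 1 runs between -1.66 for male-biased liver genes and 1.64 for acute phase proteins, while most red bars overlap the grey ones.

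Stress genes high in replicate 1 included chaperones of the endoplasmic reticulum, and whether the unfolded protein response was active was not tested. Of 20 such chaperones, 10 were over 1 unit above and 0 below (median 1.02), against 4.44% and 2.43% of all probe sets. Hspa5 (BiP), the main one, had 12.07 in replicate 1 and 10.96, 10.94, 10.86 and 10.79 in the others, against 10.66, 10.64, 10.71, 10.57 and 10.64. It was higher than vehicle in all low arrays, without a call (0.24, limma adjusted p = 0.343 without replicate 1). Manf, a secreted partner of Hspa5, had 12.53 in replicate 1 and 10.53 to 10.75 in the others, against 10.28 to 10.56. Over the list without replicate 1, 2 of 20 members were higher and 0 lower at an unadjusted p under 0.05. The shares over all probe sets were 4.11% and 3.77%. Only 5 of the 20 had a positive difference.
Of 24 ATF4 targets in replicate 1, 11 were over 1 unit above and 1 below, against 4.44% and 2.43% of all probe sets. Ddit4, an inhibitor of mTORC1, had 7.31 there and 5.90, 6.22, 6.03 and 5.54 in the others, against 5.38, 5.49, 5.66, 5.37 and 5.34, overlapping in low replicate 5 (0.48, adjusted p = 0.364 without replicate 1). Without replicate 1, 2 of the 24 targets were higher and 1 lower at an unadjusted p under 0.05. The shares over all probe sets were 4.11% and 3.77%. The 1 lower was Cebpb (-0.35), and the list median was 0.002, with 13 of 24 positive. The largest difference of replicate 1 from the vehicle mean was 6.15, for Sprr1a, a cornified envelope protein, at 9.84 against 3.51 to 3.89 in vehicle mice and 3.44 to 3.81 in the other low arrays. Crybb3, a lens crystallin by name, had 9.97, against 3.95 to 4.87 and 3.95 to 4.82.

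Several lists of hepatocyte function were far lower in replicate 1, and others had no member over 1 log2 unit below the vehicle mean. Hepatocyte markers (median -0.03), coagulation and complement genes (-0.11) and oxidative phosphorylation genes (-0.35) had 0 of 13, 0 of 22 and 0 of 21 such members, against 2.43% of all probe sets. Below every vehicle array, however, were 5 of 13, 12 of 22 and 20 of 21, against 35% of all probe sets. Oxidative phosphorylation genes were thus lower by a small amount in nearly all members. Male-biased liver genes had 8 of 12 over 1 unit below the vehicle mean (median -1.66), lipogenesis 11 of 19 (median -1.31), growth hormone signalling 5 of 11 (median -0.95), xenobiotic P450s 8 of 21 (median -0.80) and bile acid genes 10 of 23 (median -0.71). The P450 and bile acid lists each had 1 member over 1 unit above, and the other 3 had 0. Hsd3b5, a male-specific hydroxysteroid dehydrogenase, had 8.03 in replicate 1 and 12.01, 12.24, 11.76 and 12.08 in the others, against 12.16, 12.21, 11.90, 12.09 and 12.25. Thrsp (Spot 14), a lipogenic regulator, had 8.73 and 12.50, 12.21, 12.80 and 11.68, against 12.69, 12.59, 12.46, 12.38 and 12.49. Low replicate 5 was the lowest of the remaining low arrays for Thrsp and for the next 3 genes.
Usp2, a clock-controlled deubiquitinase, had 4.81 and 9.05, 8.81, 9.46 and 8.21, against 9.43, 8.74, 9.81, 9.21 and 9.10. Rgs16, a G protein regulator, had 4.02 and 7.59, 7.42, 8.90 and 6.70, against 7.43, 8.52, 9.59, 8.34 and 8.36, and 9130409I23Rik had 4.08 and 7.65 to 8.60, against 8.14 to 9.05. Cnmd (chondromodulin) had 4.49 and 7.81 to 8.12, against 8.14 to 8.28. Pericentral markers had a median of -0.63 in replicate 1, with 9 of 20 over 1 unit below, and periportal markers -0.35, with 3 of 15. In the 4 other low arrays the pericentral median lay between 0.01 and 0.11, within the -0.08 to 0.11 of single vehicle arrays.

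Few of the genes that stood far out in replicate 1 lay outside the vehicle range in the other low arrays, and those that did were more often on the same side. Of the 768 probe sets over 1 unit above vehicle in replicate 1, the other 4 arrays were all above vehicle for 24 (3.13%) and all below for 2, and their median log2 difference was 0.02. Of the 420 over 1 unit below, the other 4 were all below for 25 (5.95%) and all above for 4, with a median of -0.07. Over all probe sets these 4 arrays were all above for 1.61% and all below for 1.35%. The same vehicle arrays enter both differences, so these counts are given as they stand.

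Some genes of metal binding, hormone response and the clock differed in the 4 arrays without a call. Mt1, a metallothionein that binds zinc and copper, had 13.70 in replicate 1 and 9.99, 10.48, 9.22 and 9.69 in the others, against 10.83, 10.73, 10.89, 12.06 and 10.22. Low replicate 3 overlapped with vehicle replicate 5, and vehicle replicate 4 was high here too (-1.10, limma adjusted p = 0.439 without replicate 1; -0.33 with it). Of 14 glucocorticoid targets, which include Mt1, 3 were lower and 0 higher at an unadjusted p under 0.05, against 3.77% and 4.11% of all probe sets, and the list median was -0.20. Errfi1, an inhibitor of EGFR signalling on that list, was at 11.09 to 11.31 in the 4 arrays and 11.32 in replicate 1, against 11.36 to 11.57 (-0.28, adjusted p = 0.352).
Plk3, a stress kinase listed with p53 targets, had 6.33 in replicate 1 and 6.43, 5.68, 6.69 and 6.92 in the others, against 7.71, 7.96, 6.64, 7.82 and 7.68. Only vehicle replicate 3 reached into the low range (-1.14, adjusted p = 0.364). Nr1d2 (REV-ERB beta), a clock repressor, was at 8.74 in replicate 1 and 9.59, 9.63, 9.45 and 9.40, against 9.80, 9.77, 9.84, 9.93 and 9.79, with no overlap (-0.31, adjusted p = 0.308). Of 19 clock genes, 2 were lower and 0 higher at an unadjusted p under 0.05, to be read against the same shares. Id1, a target of bone morphogenetic protein signalling in hepatocytes, had 8.32 in replicate 1 and 7.39, 7.61, 7.80 and 6.50 in the others, against 6.64, 6.51, 6.43, 6.44 and 6.74. Low replicate 5 was at vehicle level. The log2 difference of Id1 without replicate 1 was 0.77 (limma adjusted p = 0.382). Only with low replicate 5 also left out was the gene called (1.05, SE 0.10, adjusted p = 0.0127). That was 1 of 17 alternative settings, over which the difference ran from 0.29 to 1.05.

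The low dose was also set against the medium and the high dose directly. Low minus medium called 0 probe sets (0%) and 798 reached an unadjusted p under 0.05, while low minus high called 0 (0%) with 2189. Without low replicate 1 these were 0 (0%) with 1875 and 0 (0%) with 4575, and the smallest adjusted p (limma) was 0.324 against the medium and 0.0839 against the high dose. By the threshold alone, about 865 of the 17306 probe sets would be expected at an unadjusted p under 0.05. The lack of calls does not show the doses to be alike. With all 5 low arrays and 1 spread shared by all 69 arrays, low minus high called 1446. The high and medium arrays varied widely among themselves: Hmox1 had 6.52, 5.52, 6.82, 7.94 and 6.45 in medium and 5.62, 8.55, 8.39, 6.71 and 8.62 in high arrays. Low minus high for Hmox1 was -1.30 (adjusted p = 0.404, 5 against 5), with replicate 1 the only low array above 5.88.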

How the data were processed

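The values were deposited log2 signals made by the authors with RMA, per the submitters' processing notes; RMA subtracts background, normalizes quantiles and summarises probes. Its version and probe-set definition were not given in the sources used here. The table held 17306 probe sets, 16464 with 1 gene symbol, 842 with none and 0 with several, and no further normalization was applied. Groups came from array titles; design text names 5 mice per group, so a replicate is a mouse. limma 3.58.1 (R 4.3.3) compared only the 2 groups in question, without covariates, in two-sided moderated tests, adjusted over all probe sets. The test was checked on simulated normal values whose spread came from vehicle and the 4 low arrays without replicate 1. That check does not cover the spread that replicate 1 adds. Gene members and 41 lists (733 genes, 629 measured) came from general knowledge and were chosen with earlier results of these data known. Named genes were, per direction, the largest called changes, filled up to 8 without replicate 1 and up to 4 with all arrays. The filling took the smallest p among genes whose low arrays all lay beyond all 5 vehicle arrays. Also named were the 6 largest per direction in replicate 1 and the 2 of smallest p per list. Any member of the APAP, glutathione and NRF2 lists could be named too. Neutrophil granule genes, Tubb2a relatives, Cyp4a14 and others so marked were added after their values were seen. Alternatives changed controls, spread, scaling, filter, weights, moderation and arrays. Promoters came from RefSeq (GRCm38.p6). Plots used matplotlib 3.10.9.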

Additional observations from a re-analysis of the deposited data

Results flagged for a closer look

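Single mice stood out in 53 of 236 groups of values examined, over 78 genes and the count of far probe sets. The measure was the gap between the highest or lowest array and its nearest neighbour, divided by the range of the group, against Dixon's critical values for groups of 4 and 5 arrays; chance passes them in about 1 in 20 groups. That rate cannot be set against these counts, because many of the genes were named for their values in low replicate 1, which accounted for 41 of the 53. Its count of probe sets over 1 log2 unit from vehicle gave a ratio of 0.972. Among genes that were highest in replicate 1, the ratio was 0.952 for Slc7a11, 0.942 for Sprr1a, 0.938 for Hmox1, 0.914 for Chil3, 0.905 for Abcc4, 0.902 for S100a8, 0.897 for Srxn1 and 0.894 for Manf. It was 0.865 for Hspa5, 0.858 for Tubb2a, 0.855 for Crybb3 and for Saa2, 0.853 for Lss, 0.85 for Cbr3, 0.831 for Tubb5 and 0.804 for Tubb6. Smaller ratios of that kind were 0.79 for Cyp3a13, 0.78 for Lcn2, 0.764 for Ggct, 0.75 for Slc30a10, 0.739 for Trub2 and 0.719 for Mt1.

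Among genes that were lowest in replicate 1, the ratio was 0.949 for Ugt2b1, 0.922 for Cyp3a11, 0.915 for Cnmd, 0.887 for Hsd3b5, 0.876 for Gsta3, 0.833 for Ptprb, 0.803 for Cyp4a10, 0.795 for Sult1d1, 0.791 for Pctp and 0.79 for 9130409I23Rik. It was 0.755 for Rbm33, 0.743 for Cyp1a2, 0.742 for Gpcpd1, 0.74 for Nr1d2, 0.731 for Usp2, 0.725 for Thrsp, 0.723 for Crebrf and 0.717 for Gstm3.

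Other low arrays stood out less often. Replicate 2 was high for Mpo, with 0.715 among all 5 and 0.832 without replicate 1. Without replicate 1, low replicate 4 was low for Slc35a4 (0.939), replicate 3 was high for Crybb3 (0.898) and Cyp2e1 (0.83), and replicate 5 was high for Tubb6 (0.863). In vehicle mice, replicate 3 was high for Gstm1 (0.807) and Cyp4a14 (0.759) and low for Plk3 (0.79), replicate 4 was low for Trub2 (0.753), replicate 2 was high for Tubb6 (0.747) and replicate 5 was high for Ankra2 (0.734). The causes were not tested.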

How the results depend on the processing

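The comparison of all 5 low arrays with vehicle called 0 probe sets, and 15 with the vehicle mice of both days as controls, 1 (Tubb2a) with array weights, and 0 to 1 when 1 array was left out, the 1 being Tubb2a without low replicate 1 and Cyp4a14 without vehicle replicate 3. Without low replicate 1 the count of 1 became 9 with vehicle mice of both days, 2 (Tubb2a and Rbm33) with dim genes left out or with trended and robust moderation, and 0 with the spread of all other 68 arrays or of the quieter 1 day groups. Leaving out 1 more array gave 1 to 3: Tubb2a, joined by Id1 and a probe set without a symbol without low replicate 5, and by Cyp4a10 and Cyp4a14 without vehicle replicate 3. Low minus high called 0, and 1446 with 1 spread for all 69 arrays, which takes the widely varying high arrays to vary like the rest; low minus medium called 0 in every alternative run, with or without low replicate 1. The causes of the other shifts were not tested. Values of named genes were recomputed 1293 times for 96 results, of which 14 came under and 2 went over an adjusted p of 0.05, and 20 untested values of replicate 1 moved by more than the vehicle SD. The 6 that changed sign were replicate 1 values near 0: Mpo became 0.0045 with repeated quantile normalization, Elane 0.015 and 0.00037 without vehicle replicate 3 or 4 (range -0.15 to 0.015 when 1 array was left out), and Ltf -0.10 with arrays centred and -0.011 and -0.024 without vehicle replicate 1 or 5 (range -0.024 to 0.088). No paired analysis was possible because each array holds a different mouse and the replicate numbers only follow the record order. With 4 or 5 arrays per group, changes below the array spread could not be detected, and signals near either end of the scale are compressed.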

Other observations

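Some further gene groups were not yet described. Of 24 interferon response genes, 3 were higher and 1 lower at an unadjusted p under 0.05 (limma, without replicate 1), against 4.11% and 3.77% of all probe sets. Irgm1, an immunity GTPase induced by interferon, had 8.76 in low replicate 1 and 8.39, 8.27, 8.40 and 8.47 in the other low arrays, against 8.04, 8.23, 7.92, 8.20 and 8.19 in vehicle mice, with no overlap (0.26, adjusted p = 0.416). Of 19 endothelial markers, 0 were higher and 4 lower, with a list median of -0.10; list medians of single arrays lay between -0.16 and -0.06 in low replicates 2 to 5, against -0.07 to 0.05 in vehicle mice. Ptprb, a vascular phosphatase, was at 8.12 to 8.21 in the 4 arrays and 7.70 in replicate 1, against 8.25 to 8.40 (-0.15, adjusted p = 0.538). Krt19, a keratin of bile duct cells, was at 3.93 to 4.18 in the 4 arrays and 4.32 in replicate 1, against 3.48 to 3.92, at the low end of the scale (0.33, adjusted p = 0.370). Of 34 cell cycle genes, 21 oxidative phosphorylation genes and 21 xenobiotic P450s, 0 reached an unadjusted p under 0.05 in either direction.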
